A study of Mus musculus with 220 samples.

Results

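The Cyp2c genes encode a family of hepatic cytochrome P450 enzymes, and they were examined as 10 listed genes, Cyp2c29, Cyp2c37, Cyp2c38, Cyp2c39, Cyp2c40, Cyp2c44, Cyp2c50, Cyp2c54, Cyp2c55 and Cyp2c70. The members were taken by name, with every probe set that the annotation gave to 1 of these genes and no other. The result was 9 genes with 1 probe set each, out of 17097 genes that had a probe set annotated to them alone and 45037 probe sets analysed. The platform annotation named 8 of them, Cyp2c44 under its current symbol Cyp2c23, and the probe set of Cyp2c54 was named only by a supplementary table of the study. For Cyp2c40 no probe set was named, and it was not analysed here. All 10 genes lie on chromosome 19, in the order Cyp2c55, Cyp2c29, Cyp2c39, Cyp2c38, Cyp2c40, Cyp2c37, Cyp2c54, Cyp2c50 and Cyp2c70, with Cyp2c44 apart from the others. Cyp2c39 is placed here by the first of its annotated starts.

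Cytochrome P450 enzymes of this family sit in the membrane of the endoplasmic reticulum, take electrons from P450 oxidoreductase and insert an oxygen atom into fatty acids, retinoids, steroids, bile acids and drugs. In mouse liver several of them turn arachidonic acid into epoxides (epoxyeicosatrienoic acids) or hydroxylated products, lipid mediators that act on vascular tone and inflammation. The genes form a tandem cluster of close copies, and the short probes of an array for one copy can also bind the transcript of another, which is called cross-hybridisation. Probe sequences were not analysed here, and neither were strain variants under the probes, which can change a signal without a change of transcript. Each level below is thus the signal of a probe set that is annotated to the gene.

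The livers came from 220 female F1 mice of the Ath-HMDP, the atherosclerosis version of the hybrid mouse diversity panel. Each mother belonged to 1 of 96 inbred or recombinant inbred strains, and each father was a C57BL/6J male carrying the human transgenes APOE-Leiden (heterozygous) and CETP (homozygous). F1 mice with both transgenes were kept, so every mouse had both, those of the C57BL/6J group included. Each also had 1 C57BL/6J chromosome set from its father. Mice of the C57BL/6J group had a C57BL/6J mother as well, so both of their sets were C57BL/6J. The contrasts against C57BL/6J thus set F1 hybrids beside mice that were not hybrids. At collection the mice were 24 weeks old, with 16 weeks of Western diet behind them after 8 weeks of chow. A strain, meaning here the maternal strain, had 1 mouse in 9 cases, 2 in 51, 3 in 35 and 4 in 1, and by their names the strains fell into 34 BXD (83 mice), 21 AXB/BXA (47 mice), 8 CXB (17 mice), 4 BXH (8 mice) and 29 classical inbred strains (65 mice). BXD strains descend from C57BL/6J and DBA/2J, AXB/BXA strains from A/J and C57BL/6J, CXB strains from BALB/c and C57BL/6 lines and BXH strains from C57BL/6J and C3H/HeJ. By their names AXB19/PgnJ, AXB19a/PgnJ and AXB19b/PgnJ are sister substrains, and they are counted as 3 separate strains throughout. Levels are log2 values after RMA (robust multi-array averaging), 1 array per mouse, so that a difference of 1 is a 2-fold difference in signal. The medians of the arrays lay between 3.43 and 3.57.

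Mice of 1 strain were first compared with each other in the 46 probe sets with at least 0.9 of their variance between strains. In BXH19/TyJ the 2 mice lay more than 1 apart in 17 of these 46 probe sets, the highest count of the 87 strains with 2 or more mice, followed by 9 probe sets in BXD21/TyJ and 8 in AXB6/PgnJ. Among the strains of the progenitor contrasts the count was 6 in A/J, 4 in C3H/HeJ, 1 in DBA/2J, 1 in BALB/cJ and 0 in C57BL/6J. Cyp2c39 was 9.20 in one BXH19/TyJ mouse and 4.66 in the other, and whether both mice belong to the labelled strain was not tested. The F-tests, panel means and likeness of Cyp2c39 are also given without this strain, and its own mean and position are those of 2 unlike mice.

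The sequences of these genes' promoters show how close the copies are, and those of the genes that carry the results are given first. They are RefSeq sequences on GRCm38.p6, an assembly of C57BL/6J, which is the paternal chromosome of every mouse here; those of the other strains were not analysed. Each window runs over 300 bases, from 250 before to 50 after the annotated start of transcription. The table matched 8 of the 10 genes (not Cyp2c54 or Cyp2c44), Cyp2c39 with 2 starts, and held Cyp2c68 as well, 10 windows in all. The window of the second Cyp2c39 start, chr19:39510572-39510871, lies beyond that of Cyp2c38 and is not printed. Which start was used in these livers was not tested. The first set holds 3 neighbouring genes, Cyp2c29, Cyp2c39 at its first start and Cyp2c38, of which Cyp2c39 had the widest differences between strains and Cyp2c38 the next largest share of variance. Capitals mark TATAAA, the TATA box, and TGTTTAC, a motif of FOXA factors, which open chromatin at liver genes.
Cyp2c29, chr19:39286835-39287134, plus strand: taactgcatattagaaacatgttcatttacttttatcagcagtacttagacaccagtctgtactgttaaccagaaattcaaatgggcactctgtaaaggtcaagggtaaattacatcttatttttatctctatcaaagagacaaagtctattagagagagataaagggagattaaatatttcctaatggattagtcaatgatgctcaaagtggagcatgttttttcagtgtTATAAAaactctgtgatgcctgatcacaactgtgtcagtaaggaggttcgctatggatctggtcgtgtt
Cyp2c39, chr19:39347096-39347395, plus strand: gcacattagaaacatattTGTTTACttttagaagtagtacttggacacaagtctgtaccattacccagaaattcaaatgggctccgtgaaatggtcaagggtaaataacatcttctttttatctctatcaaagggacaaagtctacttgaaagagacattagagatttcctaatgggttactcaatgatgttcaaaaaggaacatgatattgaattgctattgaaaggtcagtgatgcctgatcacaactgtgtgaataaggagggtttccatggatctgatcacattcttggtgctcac
Cyp2c38, chr19:39463026-39463325, minus strand: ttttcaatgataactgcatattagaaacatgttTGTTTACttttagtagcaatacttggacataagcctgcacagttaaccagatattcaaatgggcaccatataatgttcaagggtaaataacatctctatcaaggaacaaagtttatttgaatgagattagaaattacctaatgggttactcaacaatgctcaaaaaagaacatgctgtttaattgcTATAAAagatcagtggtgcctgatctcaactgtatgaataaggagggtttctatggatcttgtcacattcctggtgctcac

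In a global alignment Cyp2c39 was identical to Cyp2c38 at 78.1% and to Cyp2c29 at 76.0% of aligned positions, and Cyp2c29 to Cyp2c38 at 71.1%. TGTTTAC was found in 3 of the 10 windows, those of Cyp2c38 and of both starts of Cyp2c39, against 3.65% of all 32851 promoter windows of this length. TATAAA was found in 6 of the 10, against 13.6% of all windows. It began at position -19 from the start in Cyp2c29, -31 in Cyp2c38, -29 in Cyp2c55 and, on the opposite strand, -29 in Cyp2c70. In the second start of Cyp2c39 it began at -3 and in Cyp2c40 at 40, after the start. The absence of TATAAA from the first start of Cyp2c39 says only that these letters are not in that window. The windows are those of related copies, so their counts are not independent. Both strands were searched for these, for the core of an HNF1 site (GTTAAT) and for the HNF4 motif (CAAAGTCCA), the STAT5 motif (TTCNNNGAA) and the C/EBP motif (TTGCGCAA). The HNF4 motif was in 3 of the 10 windows (Cyp2c40, Cyp2c68 and Cyp2c70, against 0.475% of all), GTTAAT in 2 (Cyp2c40 and Cyp2c68, against 7.1%), and the last 2 motifs in none (against 8.3% and 0.183%). No searched motif overlapped another in the printed windows.

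The second set holds Cyp2c37 and Cyp2c50, whose levels moved together across strains. Their windows were identical at 86.6% of aligned positions, the highest value of the 45 pairs of windows. Cyp2c37 and Cyp2c68 moved together to a like extent (Pearson's r of strain means 0.83, against 0.82), with windows identical at 51.6%. Whether likeness of promoters goes with likeness of levels was not tested. Neither the Cyp2c37 nor the Cyp2c50 window held any of the searched motifs. Capitals here mark the 36 bases of each that had no identical partner in the alignment.
Cyp2c37, chr19:39992174-39992473, plus strand: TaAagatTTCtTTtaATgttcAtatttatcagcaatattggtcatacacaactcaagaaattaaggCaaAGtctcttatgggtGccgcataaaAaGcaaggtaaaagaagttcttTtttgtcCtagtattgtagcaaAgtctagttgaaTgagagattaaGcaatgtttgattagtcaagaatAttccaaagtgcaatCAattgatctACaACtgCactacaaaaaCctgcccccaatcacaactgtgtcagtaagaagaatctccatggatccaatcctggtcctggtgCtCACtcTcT
Cyp2c50, chr19:40089429-40089728, plus strand: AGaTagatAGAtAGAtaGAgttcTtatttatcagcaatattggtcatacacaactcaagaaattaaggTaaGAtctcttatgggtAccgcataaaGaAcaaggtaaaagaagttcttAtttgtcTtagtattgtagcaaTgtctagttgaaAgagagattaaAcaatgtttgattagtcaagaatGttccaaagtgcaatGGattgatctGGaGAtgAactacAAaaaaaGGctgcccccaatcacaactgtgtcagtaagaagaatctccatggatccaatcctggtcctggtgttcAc

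The maternal strain set apart the levels of every measured Cyp2c gene. With limma's moderated F-test across the 87 strains with 2 or more mice (211 mice), 9 of 9 probe sets passed an adjusted p of 0.05, and 47.9% of all probe sets did so. Of the 22518 probe sets with a mean above 3.46, among them all 9, 18835 passed when tested alone. The share of variance between strains was 0.65 in the median of the 9 and 0.148 in the median of all 45037 probe sets. It was 0.97 for Cyp2c39, 0.73 for Cyp2c38, 0.718 for Cyp2c44, 0.665 for Cyp2c29, 0.65 for Cyp2c37, 0.595 for Cyp2c50, 0.557 for Cyp2c54, 0.502 for Cyp2c70 and 0.45 for Cyp2c55. Without BXH19/TyJ the share was 0.984 for Cyp2c39 and 0.704 for Cyp2c29, and the same 9 probe sets passed. The gene lists described below had median shares from 0.345 (hepatocyte markers) to 0.698 (cholangiocyte markers).

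Cyp2c39, an arachidonic acid epoxygenase that also hydroxylates retinoic acid, fell into separate low and high levels. Among the 220 mice, 99 lay at 6.10 or below and 121 at 7.34 or above, with no value between. Strain means ranged from 3.99 in BXA7/PgnJ to 10.86 in SWR/J, a log2 range of 6.87. The lowest mouse, at 3.45, lay within the span of the array medians, and others, down to 3.64, lay close above it. Signal and background were not separated there, so no fold is given for this range. The lowest 3 were BXA7/PgnJ (3.99), BXD40/TyJ and BXD18/TyJ (both 4.0), and the highest 3 were SWR/J (10.86), NOD/ShiLtJ (10.53) and SM/J (10.42). Below the gap lay 45 strains, up to 5.63 in BTBR T<+> tf/J, and above it 51. The lowest of those above, BXH19/TyJ at 6.93, is the mean of its 2 unlike mice, 9.20 and 4.66.

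**Figure D1:**
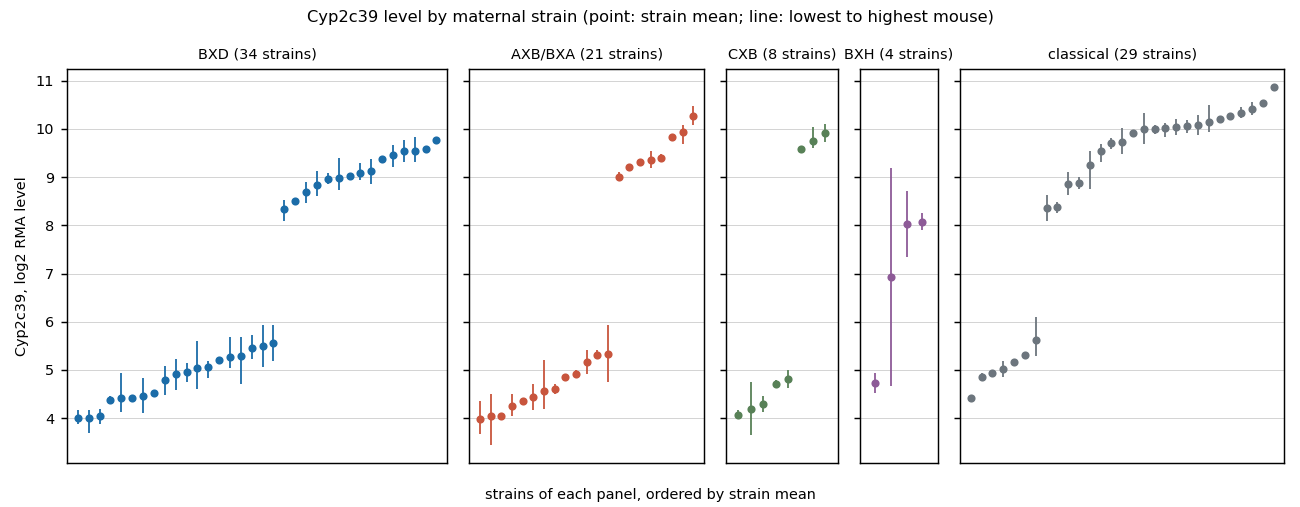
Cyp2c39 level (log2 RMA value, vertical axis) by maternal strain, with the strains of each panel ordered by their means along the horizontal axis. Points are strain means and lines run from the lowest to the highest mouse; in every panel the strains lie at 5.63 or below or at 6.93 or above, and 1 BXH strain (BXH19/TyJ) has a mouse at each level.

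All 4 progenitor strains other than C57BL/6J lay at the high level of Cyp2c39. The 3 A/J mice had 9.69, 9.30 and 9.62, the 3 DBA/2J mice 9.54, 8.74 and 9.47, the 3 BALB/cJ mice 10.13, 10.09 and 9.83 and the 2 C3H/HeJ mice 8.48 and 8.26, against 5.36 and 5.25 in the 2 C57BL/6J mice. No progenitor mouse overlapped the C57BL/6J mice. The log2 difference from C57BL/6J was 4.23 ± 0.38 (SE) for A/J, 3.94 ± 0.38 for DBA/2J, 4.71 ± 0.38 for BALB/cJ and 3.07 ± 0.41 for C3H/HeJ, or 18.8-fold, 15.4-fold, 26.2-fold and 8.37-fold, with limma adjusted p of 3.17e-17, 2.3e-15, 3.05e-20 and 1.88e-08. These 4 comparisons share the 2 C57BL/6J mice. Cyp2c39 was the 1 member of 9 that was called higher, in each of the 4 comparisons, where 4.11% of all probe sets were called higher in A/J, 0.842% of them in DBA/2J, 3.93% of them in BALB/cJ and 3.5% of them in C3H/HeJ.

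**Figure D2:**
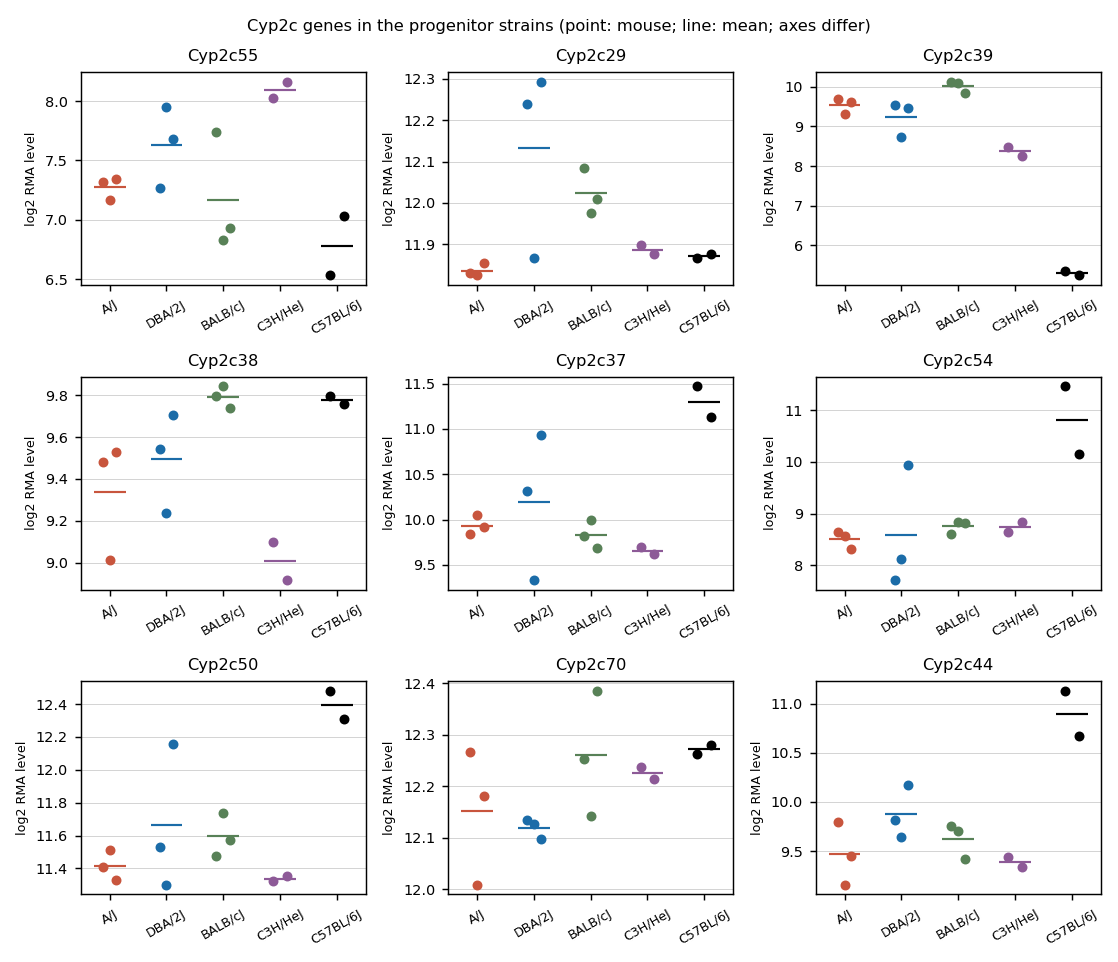
Levels (log2 RMA value, vertical axes that differ by gene) of the 9 Cyp2c genes in 13 mice of the 4 progenitor strains and, at the right, of C57BL/6J, each point 1 mouse and each line a strain mean. Cyp2c39 lies between 8.26 and 10.13 in the 4 progenitor strains and at 5.36 and 5.25 in C57BL/6J, while Cyp2c37, Cyp2c54, Cyp2c50 and Cyp2c44 have their highest mean in C57BL/6J.

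Within the recombinant inbred panels Cyp2c39 followed one progenitor or the other. The position of a strain was computed as its difference from C57BL/6J over the difference of the progenitor from C57BL/6J, 0 being the C57BL/6J level and 1 the progenitor level. Of 34 BXD strains, 15 had a position over 0.75 and 19 a position under 0.25, the high ones from 8.33 (BXD69/RwwJ) to 9.77 (BXD55/RwwJ) and the low ones from 4.0 (BXD40/TyJ) to 5.56 (BXD50/RwwJ). Of 21 AXB/BXA strains 8 were over 0.75 (9.0 to 10.27) and 13 under 0.25 (3.99 to 5.34), and of 8 CXB strains 3 were over 0.75 (9.58 to 9.91) and 5 under 0.25 (4.07 to 4.81). The 13 include the sister substrains AXB19/PgnJ, AXB19a/PgnJ and AXB19b/PgnJ, with positions of -0.16, -0.03 and -0.25. No strain of these 3 panels lay between. Of the 4 BXH strains, BXH22/KccJ (7.90 and 8.25) and BXH8/TyJ (8.71 and 7.34) were over 0.75, BXH6/TyJ (4.94 and 4.53) was under 0.25 and BXH19/TyJ lay between through its unlike mice.

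Most classical strains had the high level of Cyp2c39. It was found in 22 of the 29, from 8.36 in CBA/J to 10.86 in SWR/J with a median of 10. The 7 at the low level were C57BLKS/J (4.43), 129X1/SvJ (4.85), C57L/J (4.94), C58/J (5.02), RIIIS/J (5.17), C57BL/6J (5.31) and BTBR T<+> tf/J (5.63). The mice of a strain stayed close, with a median range within strains of 0.38, and after BXH19/TyJ (4.53) the widest ranges were 1.36 in BXH8/TyJ and 1.18 in AXB13/PgnJ.

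Pik3ap1, a phosphoinositide signalling adaptor encoded farther along chromosome 19, showed a similar split. It was 10.1, 10.07 and 9.88 in A/J, 9.87, 9.94 and 9.90 in DBA/2J, 9.94, 9.89 and 10 in BALB/cJ and 10.03 and 10 in C3H/HeJ, against 7.53 and 7.39 in C57BL/6J. Over all mice 104 lay at 7.89 or below and 116 at 9.38 or above, and 0.967 of its variance lay between strains. The strain means of both genes were on the same side of their gaps in 92 of 96 strains (48 both high, 44 both low; 91 of 95 without BXH19/TyJ), including all 21 AXB/BXA and all 8 CXB strains. The exceptions were BXD36/TyJ, BXD43/RwwJ and BXH22/KccJ, with high Cyp2c39 and low Pik3ap1, and RIIIS/J, with low Cyp2c39 (5.16 and 5.18) and high Pik3ap1 (10.08 and 10.03). The BXH19/TyJ mouse with Cyp2c39 at 9.20 had Pik3ap1 at 10.29, and the one with 4.66 had 7.62.

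**Figure D3:**
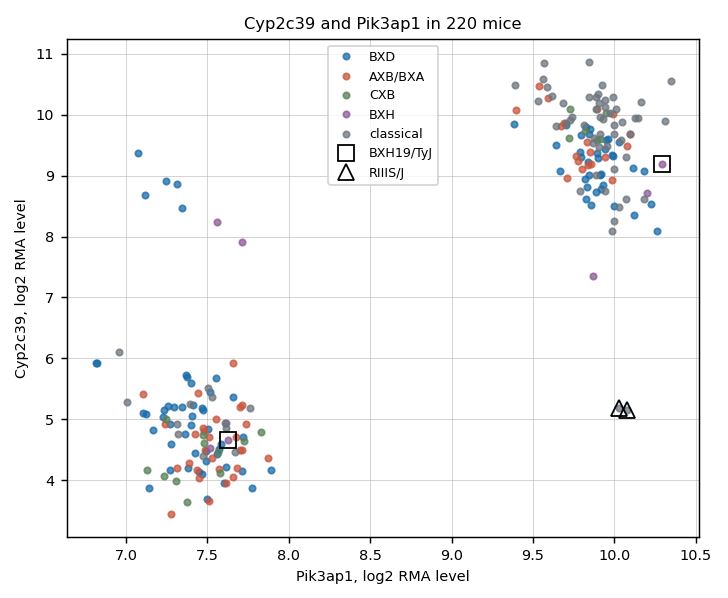
Cyp2c39 level against Pik3ap1 level (log2 RMA values) in 220 mice, coloured by panel, with squares around the 2 BXH19/TyJ mice and triangles around the 2 RIIIS/J mice. The mice form a low-low and a high-high cloud, the 2 BXH19/TyJ mice lie in different clouds, and few mice (BXD36/TyJ, BXD43/RwwJ and BXH22/KccJ above, RIIIS/J to the right) lie in neither.

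Cyp2c29 and Cyp2c38, also arachidonic acid epoxygenases and the neighbours of Cyp2c39 in this list, differed far less between strains than Cyp2c39. Strain means of Cyp2c29 ranged from 10.98 in BXA1/PgnJ (1 mouse) to 12.28 in SWR/J, with BXD31/TyJ (11.07) and BXD40/TyJ (11.10) next from below and FVB/NJ (12.27) and BXD75/RwwJ (12.23) next from above. Its log2 difference from C57BL/6J was -0.03 ± 0.18 (SE) in A/J, 0.26 ± 0.18 in DBA/2J, 0.15 ± 0.18 in BALB/cJ and 0.02 ± 0.20 in C3H/HeJ, and none passed the test (limma adjusted p 0.958, 0.689, 0.767 and 0.983). Its level was thus separated between strains by the F-test without a called difference in these 4 pairs. In BXH19/TyJ the mouse with the higher Cyp2c39 also had the higher Cyp2c29, 12.23 against 11.04.

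In Cyp2c38 the strain RIIIS/J stood alone. Its 2 mice had 11.31 and 11.39, while no other mouse exceeded 10.22 and the next strain means were 10.19 in NOD/ShiLtJ and 10.15 in SWR/J. The lowest means were 8.05 in C57L/J and 8.23 in BXA1/PgnJ, each from 1 mouse, and 8.51 in BXH8/TyJ. RIIIS/J is also one of the strains with low Cyp2c39, so that the highest Cyp2c38 signal and a low Cyp2c39 signal came from the same 2 livers. Without RIIIS/J the share of variance between strains of Cyp2c38 was 0.674, against 0.73 with it, and the gene still passed the F-test (adjusted p 6.27e-19). In C3H/HeJ Cyp2c38 was called lower, at 9.10 and 8.92, against 9.80 and 9.76 in C57BL/6J (log2 difference -0.77 ± 0.25, adjusted p 0.0413), a call that was lost without any 1 of these 4 mice. In A/J, DBA/2J and BALB/cJ its log2 differences were -0.44, -0.28 and 0.02, with adjusted p of 0.281, 0.741 and 0.987.

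Signals of Cyp2c37, Cyp2c54, Cyp2c50 and Cyp2c44 were high in C57BL/6J, which ranked 3rd, 6th, 2nd and 2nd from the top of the 96 strains. Whether variants of the other strains under these probes lower their signal was not tested. Cyp2c37 makes hydroxylated arachidonic acid, Cyp2c50 and Cyp2c54 act on linoleic and arachidonic acid, and Cyp2c44 forms epoxides that dilate vessels. Cyp2c37 was 9.84, 10.05 and 9.92 in A/J, 10.32, 9.33 and 10.93 in DBA/2J, 9.82, 10 and 9.68 in BALB/cJ and 9.70 and 9.62 in C3H/HeJ, against 11.47 and 11.13 in C57BL/6J. All progenitor mice lay below both C57BL/6J mice. The log2 difference was -1.36 ± 0.41 (SE) in A/J, -1.46 ± 0.41 in BALB/cJ and -1.64 ± 0.45 in C3H/HeJ, with adjusted p of 0.0198, 0.0118 and 0.0114, and in DBA/2J it was -1.11 ± 0.41 without passing (adjusted p 0.186).

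Cyp2c54 had the widest range of the 4, and its C57BL/6J mice differed from each other. It was 8.65, 8.56 and 8.32 in A/J, 7.71, 8.11 and 9.94 in DBA/2J, 8.61, 8.83 and 8.83 in BALB/cJ and 8.64 and 8.84 in C3H/HeJ, against 11.47 and 10.16 in C57BL/6J. No progenitor mouse reached the lower C57BL/6J mouse, and the DBA/2J mouse at 9.94 came closest. The log2 difference was -2.30 ± 0.64 (SE) in A/J, -2.22 ± 0.64 in DBA/2J and -2.06 ± 0.64 in BALB/cJ, with adjusted p of 0.0114, 0.0434 and 0.0299. In C3H/HeJ it was -2.07 ± 0.70 with an adjusted p of 0.0598.

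Cyp2c50 and Cyp2c44 were called lower in all 4 progenitors. Cyp2c50 was 11.41, 11.51 and 11.33 in A/J, 11.53, 11.30 and 12.16 in DBA/2J, 11.48, 11.73 and 11.58 in BALB/cJ and 11.32 and 11.35 in C3H/HeJ, against 12.48 and 12.31 in C57BL/6J, so that the groups did not overlap. Its log2 differences were -0.98, -0.73, -0.80 and -1.06 in that order of strains, with SE of 0.21, 0.21, 0.21 and 0.23 and adjusted p of 0.000515, 0.0393, 0.00669 and 0.000909. Cyp2c44 was 9.80, 9.16 and 9.45 in A/J, 9.82, 9.64 and 10.17 in DBA/2J, 9.75, 9.71 and 9.42 in BALB/cJ and 9.44 and 9.34 in C3H/HeJ, against 11.13 and 10.67 in C57BL/6J, again without overlap. The log2 differences were -1.43, -1.02, -1.28 and -1.51, with SE of 0.24, 0.24, 0.24 and 0.26 and adjusted p of 6.01e-06, 0.00563, 7.88e-05 and 2.27e-05.

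Over the 9 members, 4 were called lower in A/J, 3 in DBA/2J, 4 in BALB/cJ and 4 in C3H/HeJ, where 3.52%, 1.02%, 3.01% and 2.36% of all probe sets were called lower. Many of these calls turned on 1 mouse. Without the C57BL/6J mouse that had the higher Cyp2c54 (11.47), the calls left among the 9 were Cyp2c39 and Cyp2c44 in A/J, BALB/cJ and C3H/HeJ and Cyp2c39 alone in DBA/2J. The log2 difference of Cyp2c54 in A/J was then -1.65 and that of Cyp2c37 in A/J -1.19.

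Across the 96 strains the same few strains held the ends of the range for these genes. BXD50/RwwJ had the highest mean of Cyp2c37 (11.88), Cyp2c50 (12.43) and Cyp2c44 (10.91), followed in Cyp2c50 and Cyp2c44 by C57BL/6J (12.40 and 10.90), and its 2 mice agreed to within 0.12 in each (11.89 and 11.88, 12.41 and 12.44, 10.85 and 10.97). SM/J (11.21), BXD1/TyJ (11.19) and NZW/LacJ (11.03) were highest for Cyp2c54. At the low end, BXA2/PgnJ had 6.74 for Cyp2c54, 10.57 for Cyp2c50, 8.89 for Cyp2c44 and 8.57 for Cyp2c37, and AXB5/PgnJ, with 1 mouse, had 7.10, 10.71, 8.51 and 8.86. The lowest mean of Cyp2c37 was that of KK/HlJ, 8.28, with its mice at 8.37 and 8.19. From lowest to highest strain the signal of Cyp2c54 ranged 22.2-fold, that of Cyp2c37 12.2-fold, that of Cyp2c44 5.28-fold and that of Cyp2c50 3.63-fold.

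Mice of 1 strain could differ widely in these genes. The median range within strains was 0.90 for Cyp2c54, 0.54 for Cyp2c37, 0.35 for Cyp2c44 and 0.24 for Cyp2c50. In CXB3/ByJ the 2 mice had 9.21 and 11.85 for Cyp2c54, 8.99 and 11.54 for Cyp2c37, 11.46 and 12.43 for Cyp2c50 and 10.21 and 11.27 for Cyp2c44, so that 1 mouse was lower in all 4. The same mouse was lower in Cyp2c38 (8.53 against 9.69) and Cyp2c29 (10.98 against 12.01) and higher in Cyp2c55 (7.36 against 6.11). In BXH8/TyJ Cyp2c37 was 10.41 and 7.99, and in SJL/J Cyp2c54 was 6.27, 7.88 and 8.55.

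Placed between their progenitors, the panel strains of BXD and AXB/BXA did not split cleanly in Cyp2c54 and Cyp2c44. For Cyp2c54, 11 of 34 BXD strains had a position over 0.75, 14 lay from 0.25 to 0.75 and 9 under 0.25. In AXB/BXA 16 of 21 strains were over 0.75, on the A/J side or beyond it, 5 lay between and none was under 0.25. These positions rest on the mean of the 2 C57BL/6J mice, at 11.47 and 10.16 for Cyp2c54. The median range of Cyp2c54 within strains was 0.90, and how far this spread blurs a split was not tested. For Cyp2c44, 15 BXD strains were over 0.75, 13 between and 6 under 0.25, and of the AXB/BXA strains 8 were over 0.75, 12 between and 1 under. Positions of Cyp2c37 in AXB/BXA ran from 0.40 to 2.0, with 16 over 0.75 and none under 0.25. In CXB, 6 of 8 strains were over 0.75 for Cyp2c37, 4 for Cyp2c54 and 3 for Cyp2c44.

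Cyp2c55 and Cyp2c70 stood outside these patterns. Cyp2c55, best known from the colon and from induction by xenobiotics, had strain means from 5.56 in LP/J, 5.88 in BXD73/RwwJ and 5.99 in BXA11/PgnJ to 8.13 in BXH8/TyJ, 8.10 in C3H/HeJ and 8.09 in CXB8/HiAJ. It was 8.03 and 8.16 in C3H/HeJ, against 6.53 and 7.03 in C57BL/6J, which did not pass (log2 difference 1.31 ± 0.48, adjusted p 0.0919). In A/J, DBA/2J and BALB/cJ its log2 differences were 0.49, 0.85 and 0.38, with adjusted p of 0.635, 0.491 and 0.749. Single mice stood low, such as 4.47 in BUB/BnJ beside 7.15 and 6.64, and 5.65 in FVB/NJ beside 7.95 and 8.04.

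Cyp2c70, the enzyme that makes muricholic acids, the rodent bile acids, varied least in level. Strain means ranged 1.52-fold, from 11.75 in C58/J, 11.87 in CBA/J and 11.88 in AXB8/PgnJ to 12.36 in BXD55/RwwJ, 12.34 in SWR/J and 12.33 in BUB/BnJ, and the median range within strains was 0.13. The 2 C58/J mice had 11.80 and 11.70. No progenitor differed from C57BL/6J in the test, with log2 differences of -0.12 in A/J, -0.15 in DBA/2J, -0.01 in BALB/cJ and -0.05 in C3H/HeJ (adjusted p 0.575, 0.62, 0.977 and 0.887).

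Cyp2c68, a gene of the same cluster that is not one of the 10, was named by the same supplementary table and served as a comparison. It was 11.33, 10.72 and 10.78 in A/J, 11.54, 10.94 and 11.09 in DBA/2J, 11.15, 11.03 and 10.81 in BALB/cJ and 10.95 and 10.92 in C3H/HeJ, against 12.06 and 11.93 in C57BL/6J. All 4 differences were called, with log2 values of -1.05, -0.81, -1.0 and -1.06 and adjusted p of 0.000847, 0.0438, 0.00182 and 0.00342. Its highest strain mean was that of BXD50/RwwJ (12.24) and its lowest that of KK/HlJ (10.53).

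Between the 5 panels, 3 of 9 members differed in limma's moderated F-test on the 96 strain means, and 6.77% of all probe sets did. Cyp2c54 averaged 9.64 ± 0.91 (SD over strains) in BXD, 8.56 ± 0.78 in AXB/BXA, 9.41 ± 0.74 in CXB, 9.78 ± 0.87 in BXH and 9.46 ± 0.85 in classical strains (adjusted p 0.00896). Cyp2c50 averaged 11.86 ± 0.27, 11.49 ± 0.37, 11.73 ± 0.22, 11.77 ± 0.37 and 11.81 ± 0.31 in the same order (adjusted p 0.0204). Cyp2c29 averaged 11.68 ± 0.34, 11.50 ± 0.31, 11.54 ± 0.28, 11.69 ± 0.07 and 11.86 ± 0.26 (adjusted p 0.0224). In each of the 3 the AXB/BXA strains had the lowest mean. Cyp2c39 averaged 8.65 ± 2.15 in classical strains and between 6.41 and 6.94 in the other panels (adjusted p 0.0532), and Cyp2c38 had an adjusted p of 0.0554. The remaining 4 members had adjusted p from 0.307 to 0.533. Without BXH19/TyJ the same 3 passed, with adjusted p of 0.0118, 0.0207 and 0.0245, and the BXH means were 9.51 ± 0.84, 11.68 ± 0.40 and 11.71 ± 0.07 (SD, 3 strains).

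**Figure D4:**
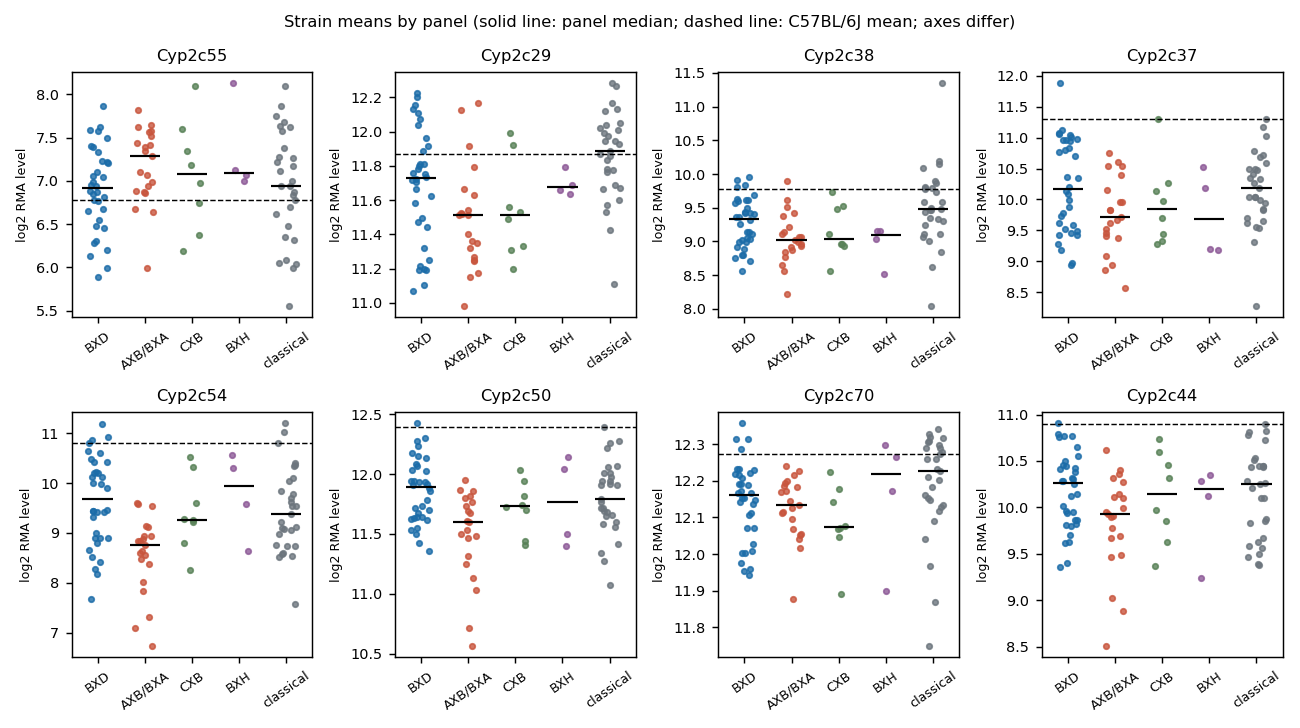
Strain means (log2 RMA value, vertical axes that differ by gene) of the 8 Cyp2c genes other than Cyp2c39 in the 5 panels, each point a strain, with the panel median as a solid line and the C57BL/6J mean as a dashed line. For Cyp2c37, Cyp2c50 and Cyp2c44 nearly all strains lie below the dashed line, and for Cyp2c54 and Cyp2c50 the AXB/BXA strains have the lowest median.

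Within single panels the strain again separated the levels of most members. Passing the F-test within the panel were 9 of 9 members among BXD strains (32.5% of all probe sets), 9 of 9 among classical strains (35.4%) and 8 of 9 among AXB/BXA strains (21.7%), Cyp2c70 being the exception with an adjusted p of 0.255. The shares of all probe sets in this paragraph count dim ones too, while all 9 members have means above 3.46. Shares among the brighter probe sets are not given by panel. Among CXB strains Cyp2c39 alone passed (adjusted p 3.05e-09, with 1.71% of all probe sets), and among BXH strains Cyp2c44 alone passed (adjusted p 0.0411, with 1.15%). Without BXH19/TyJ, Cyp2c39 also passed within BXH (adjusted p 0.00211, and 0.338 with that strain). These panels are small, with 16 CXB mice from 7 strains and 8 BXH mice from 4 strains in the test. Of the 8 BXH mice, those of BXH22/KccJ had Cyp2c44 at 9.33 and 9.15 and the other 6 between 9.86 and 10.42.

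The levels of several members moved together across strains. Over the 96 strain means, Pearson's r was 0.84 between Cyp2c54 and Cyp2c50 (Spearman's rho 0.83), 0.82 between Cyp2c37 and Cyp2c50 (rho 0.83), 0.70 between Cyp2c50 and Cyp2c44 (rho 0.64), 0.68 between Cyp2c37 and Cyp2c54 (rho 0.67) and 0.83 between Cyp2c37 and Cyp2c68 (rho 0.80). Both genes of a pair were read from the same arrays, so these values are descriptions with no test. Leaving out the 2 strains farthest from the median of the first gene gave 0.81, 0.80, 0.63, 0.68 and 0.81 in that order. Within strains, as deviations of 211 mice from their strain means, r was 0.76 for Cyp2c54 and Cyp2c50, 0.75 for Cyp2c37 and Cyp2c50, 0.53 for Cyp2c50 and Cyp2c44 and 0.72 for Cyp2c54 and Cyp2c44.

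Cyp2c55 had negative values with the others over all strains, weak for most. Its r with each of the other 7 members besides Cyp2c39 was below 0 over the 96 strains, from -0.07 with Cyp2c44 to -0.31 with Cyp2c54, and within strains it was below 0 with 6 of these 7. Within BXD strains the values ran from -0.10 to -0.57, while within classical strains they were above 0 with Cyp2c29 (0.18), Cyp2c70 (0.08) and Cyp2c38 (0.06). Cyp2c29 had r of 0.64 with Cyp2c37 and 0.63 with Cyp2c38. Over the 28 pairs of the 8 members the median r was 0.31 across all strains, 0.56 within the 34 BXD strains and 0.20 within the 29 classical strains.

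**Figure D5:**
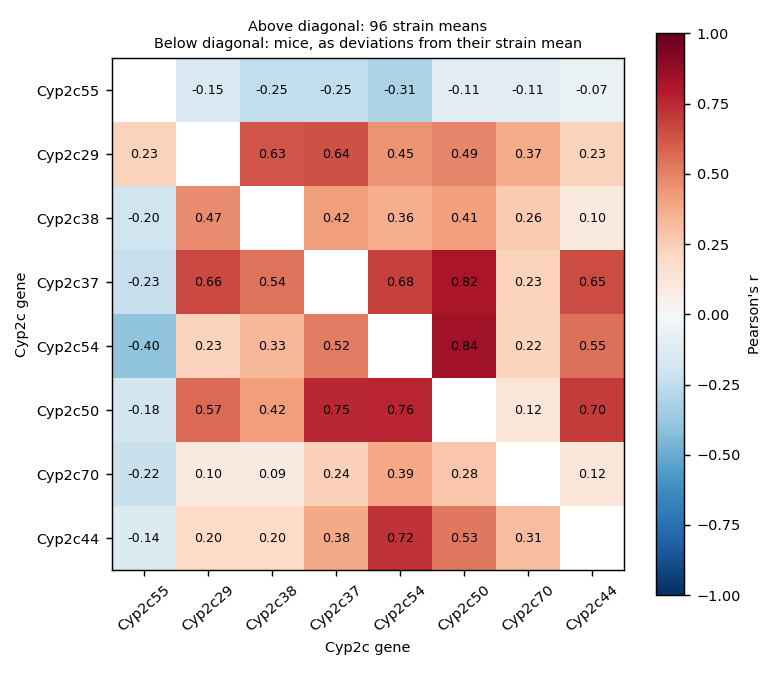
Pearson's r for each pair of 8 Cyp2c genes (Cyp2c39 left out because its strains form separate clusters), with genes in chromosome order on both axes. Cells above the diagonal are over 96 strain means and cells below it over 211 mice as deviations from their strain means; Cyp2c37, Cyp2c54, Cyp2c50 and Cyp2c44 form a block of high values and the row of Cyp2c55 is mostly below 0.

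For Cyp2c39 likeness was measured separately in the 45 strains below its gap and the 51 above it. Its means in the low strains were only 3.99 to 5.63, where array medians were 3.43 to 3.57. In the low strains its r was 0.77 with Cyp2c29, 0.76 with Cyp2c37, 0.76 with Cyp2c68, 0.59 with Cyp2c50 and 0.46 with Cyp2c38. In the high strains it was 0.54 with Cyp2c29, 0.44 with Cyp2c37, 0.47 with Cyp2c68, 0.28 with Cyp2c50 and 0.70 with Cyp2c38. Without BXH19/TyJ these values in the 50 remaining high strains were 0.56, 0.53, 0.53, 0.39 and 0.74. Within strains r was 0.59 with Cyp2c29, 0.53 with Cyp2c37 and 0.52 with Cyp2c38, and over the 209 mice other than BXH19/TyJ it was 0.50, 0.58 and 0.55. Cross-hybridisation among these close copies would be part of such values, and its share was not tested.

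Outside the family, the 3 genes whose strain means were most like each member were taken by Pearson's r over the 96 strains. For Cyp2c37 they were Slc22a26, an organic anion transporter gene that is also on chromosome 19 (0.86), Lin7a (0.83) and Kng1, the kininogen gene (0.83). For Cyp2c50 they were the sulfotransferase Sult2a8 (0.81), Il1rap, an interleukin-1 receptor subunit (0.81), and the glucuronosyltransferase Ugt2a3 (0.76), and for Cyp2c54 Sult2a8 (0.75), the carboxylesterase Ces3b (0.74) and Cyp4f14, a P450 that hydroxylates leukotrienes and fatty acids (0.73). Cyp2c44 was most like Cutc (0.70), a nearby gene on chromosome 19, Cyp4f15 (0.62) and Oaf (0.59). Cyp2c29 was most like the acyl-CoA dehydrogenase Acadsb (0.76), Prr16 (0.75) and Pank1 (0.74), the first enzyme of coenzyme A synthesis, and Cyp2c38 most like Cd59a, a complement inhibitor (0.69), Prr16 (0.65) and Nanp (0.64). Cyp2c55 was most like Tyms, Ckap2 and Nek2, genes of DNA synthesis and mitosis (0.59, 0.58 and 0.58), and Cyp2c70 most like Lifr (0.57), the gap junction gene Gjb1 (0.53) and Cyp27a1 (0.53), another bile acid enzyme. Likeness of Cyp2c39 peaked at 0.80 with Acot3 and Eci3, enzymes of fatty acid metabolism, and 0.79 with Lin7a in the 45 low strains, and at 0.69 with Pole4 and 0.68 with Rbl2 and Aqp11 in the 51 high strains. The genes most like it in the high strains depended on BXH19/TyJ, and without that strain they were Rbl2 (0.77), Papss2 (0.76) and Sult2a2 (0.75). Some of these likenesses rest on low signals. Nek2 averaged 3.52 and Eci3 4.13, and Cyp2c39 had means of 3.99 to 5.63 in the low strains.

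Other enzymes of arachidonic acid oxidation were described by a list of 14 genes, 12 of them measured. All 12 differed between strains in the F-test, as did 47.9% of all probe sets and 18835 of the 22518 with a mean above 3.46, tested alone. The median share of variance of the list was 0.602. In A/J 5 of the 12 fell and none rose, including Cyp4f14 (8.33 against 9.72 in C57BL/6J), Cyp4f15 (8.76 against 9.63), Cyp4f13 (6.04 against 6.78) and the epoxygenase Cyp2j5 (10.25 against 10.87). In BALB/cJ Cyp2j5 and Cyp4f15 fell (log2 differences -0.43 and -0.62) and Ephx1, an epoxide hydrolase, rose (0.40). In C3H/HeJ Cyp4f15 (-0.89) and Ephx2 (-0.39), the hydrolase that degrades arachidonic acid epoxides, fell and Cyp4a12a rose (2.56), and in DBA/2J Pla2g6, a phospholipase, was the 1 gene called (0.59). The median log2 difference of the list was -0.26 in A/J, 0.06 in DBA/2J, -0.19 in BALB/cJ and -0.31 in C3H/HeJ. Of all probe sets 4.11% were called higher in A/J, 0.842% in DBA/2J, 3.93% in BALB/cJ and 3.5% in C3H/HeJ. Called lower were 3.52%, 1.02%, 3.01% and 2.36%, and these shares apply to the following lists as well.

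Of 5 measured genes for electron supply and heme, Cyb5r3, cytochrome b5 reductase, fell in A/J (-0.48) and BALB/cJ (-0.56), and none was called in DBA/2J or C3H/HeJ. Of 12 measured transcription factors of hepatic P450 genes, Ppara, a fatty acid sensor, fell in A/J (-0.62), BALB/cJ (-0.91) and C3H/HeJ (-0.69), and none was called in DBA/2J. No factor rose in any of the 4. Of 15 measured targets of CAR and PXR, the receptors through which drugs induce Cyp2c genes, Cyp2b10 (-2.0), Cyp3a13 (-0.68) and Gadd45b (1.45) were called in A/J, Cyp2b13 (-2.19) and Gadd45b (1.03) in BALB/cJ, Cyp2b10 (-2.02), Cyp2b13 (-2.09) and Gstm3 (1.41) in C3H/HeJ and none in DBA/2J.

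Among 14 genes of bile acid synthesis and transport, the pathway of Cyp2c70, 7 fell in A/J, 6 in C3H/HeJ, 4 in BALB/cJ and 2 in DBA/2J, and none rose. Over all probe sets 3.52%, 2.36%, 3.01% and 1.02% were called lower in these comparisons. Cyp8b1, which makes cholic acid, had log2 differences of -1.53 in A/J, -1.21 in BALB/cJ and -1.24 in C3H/HeJ, and Akr1d1 of -0.83, -0.95 and -1.31. In DBA/2J Cyp39a1 (-1.33) and Cyp7b1 (-0.80) fell. Of 10 measured genes of retinoic acid metabolism, to which Cyp2c39 also belongs, Lrat, which esterifies retinol, fell in all 4 progenitors (-1.17 in A/J, -0.75 in DBA/2J, -1.19 in BALB/cJ and -1.19 in C3H/HeJ). Cyp26a1, the main retinoic acid hydroxylase and a gene of chromosome 19, fell in A/J (-1.84) and BALB/cJ (-1.85), where Rdh16 fell too (-1.05 and -1.65). Of 16 measured genes of growth hormone signalling and sex-biased expression, 1 rose and 3 fell in A/J, 1 fell in DBA/2J, 3 fell in BALB/cJ and 2 rose and 1 fell in C3H/HeJ, with Cyp3a41a in A/J (-4.13), Sult3a1 in C3H/HeJ (-3.21) and Cux2 in BALB/cJ (-3.12) among the widest. Over all probe sets 0.842% to 4.11% were called higher and 1.02% to 3.52% lower in these comparisons.

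Of 31 measured neighbours of the Cyp2c genes on chromosome 19, 23 differed between strains, where 47.9% of all probe sets did. Of the 22518 probe sets with a mean above 3.46, 18835 did so when tested alone. Among the neighbours not called, Lgi1, Opalin, Tll2 and Slit1 had means below that limit (3.05, 3.20, 2.75 and 3.28). Pik3ap1 rose in all 4 progenitors (2.55 in A/J, 2.44 in DBA/2J, 2.48 in BALB/cJ and 2.55 in C3H/HeJ), and in DBA/2J it was the only neighbour called. The lymphocyte genes Dntt and Blnk had log2 differences of -2.39 and 0.94 in A/J, and Cutc, named here as the gene most like Cyp2c44, fell in BALB/cJ (-0.57). Apart from Pik3ap1, neighbours were thus called in both directions in A/J and BALB/cJ.

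The liver was checked by markers of its cells. The mean levels of the hepatocyte markers Alb, Apoa1 and Ttr were 13.52, 13.28 and 13.05, and the summed level of the list was 15.87 to 15.96 in A/J, 15.89 to 15.99 in DBA/2J, 15.9 to 15.96 in BALB/cJ and 15.91 to 15.96 in C3H/HeJ, against 15.93 to 15.97 in C57BL/6J. The 8 intestinal markers averaged 10.86 (Fabp2), 5.73 (Lgals4), 5.39 (Slc5a1), 4.18 (Car1), 3.45 (Vil1), 2.97 (Cdx2), 2.81 (Krt20) and 2.48 (Cdx1). Other cell types moved with some comparisons, where 0.842% to 4.11% of all probe sets were called higher and 1.02% to 3.52% lower. Summed macrophage markers were 13.92 to 13.97 in A/J, against 13.55 to 13.56 in C57BL/6J, and 3 of 10 rose there. In DBA/2J their summed level was 13.33 to 13.6 with none called, in BALB/cJ it was 13.56 to 13.7 with 1 higher, and in C3H/HeJ it was 13.47 to 13.58 with 1 higher and 1 lower. Endothelial markers fell in BALB/cJ (7 of 8, summed level 9.4 to 9.8), A/J (3 of 8, 9.56 to 10.07), C3H/HeJ (2 of 8, 9.7 to 9.82) and DBA/2J (1 of 8, 10.02 to 10.41), against 10.27 to 10.53 in C57BL/6J. Cholangiocyte markers rose in C3H/HeJ (4 of 6, summed level 9.1 to 9.15) and BALB/cJ (1 of 6, 8.69 to 8.93), against 7.29 to 7.41 in C57BL/6J, and none was called in A/J (7.61 to 8.19) or DBA/2J (6.48 to 8.16). Stellate cell markers had a summed level of 12.83 to 13.04 in A/J, 12.48 to 12.81 in DBA/2J, 12.94 to 12.95 in BALB/cJ and 12.91 to 13.09 in C3H/HeJ, against 12.69 to 12.77 in C57BL/6J, with at most 2 of 8 higher and 1 of 8 lower. Summed intestinal markers, to which Fabp2, a gene that liver also expresses, contributes most, were at 10.57 to 10.78 in A/J, 11.22 to 11.61 in DBA/2J, 10.62 to 10.87 in BALB/cJ and 10.37 to 10.5 in C3H/HeJ, against 11.27 to 11.58 in C57BL/6J, with at most 1 of 8 called in each direction. Fewer cells of a type and less RNA per cell cannot be told apart in whole liver, and the part of these markers in the differences of the Cyp2c genes was not tested.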

How the data were processed

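Liver RNA of 220 mice was measured with 1 Affymetrix HT MG-430 PM array each. The deposited log2 values are the authors' RMA summaries, in which background is corrected, arrays are quantile-normalised and the probes of a set are combined. GCOS and RMA are the tools in the submitters' processing notes. Neither versions nor a batch correction were given in the sources used here. The table held 45141 probe sets, of which 104 array controls were left out. The platform annotation gave 1 gene to 28898 of the 45037 analysed, several to 551 and none to 15588, which are unnamed here. A level is hybridisation of short probes, so levels of the Cyp2c genes were compared between mice and not between genes. Summed marker levels add different probe sets and were likewise compared between mice. The number of arrays per strain limits the precision.

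The maternal strain in the labels was the group. Replicate numbers follow accession order and pair nothing, and the labels do not say which mice shared a litter, so p-values measure the spread between mice of a strain. The F-test across panels is the exception, as it was fitted on strain means and measures the spread between strains of a panel. Values were fitted in limma 3.58.1 (R 4.3.3) over all 45037 probe sets, with 1 mean per strain and Benjamini-Hochberg adjustment over all probe sets (threshold 0.05). The fits were an F-test across the 87 strains with 2 or more mice, 4 contrasts against C57BL/6J with the spread of all 220 mice (124 residual degrees of freedom), an F-test within each panel, and an F-test across panels on strain means. The share of variance between strains came from one-way variance components. The functions were tested on simulated data.

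Named were all member probe sets, from each gene list the members that passed in a comparison (at most 4), the 3 genes most like each member, and strains that were progenitors, extremes or alone. Strains whose own mice differed widely were picked after their values were seen. The members, lists and comparisons were chosen with earlier results of these data known. Positions between progenitors were counted for contrasts that were called with a log2 difference of at least 1. Promoters were aligned globally in Python 3.11.15. Alternatives were arrays centred on their medians, only probe sets with a mean above 3.46, a trended robust prior, other estimates of the spread, leaving out mice, Spearman's correlation and other position limits. Chosen after seeing the data were likeness within 2 panels, leaving out the 2 strains farthest from the median, and leaving out BXH19/TyJ (also for the likeness of Cyp2c39) or RIIIS/J.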

Additional observations from a re-analysis of the deposited data

How the results depend on the processing

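The count of members that differed between strains stayed between 8 and 9 of 9 in every alternative run, and Cyp2c39 kept its direction and call in all 4 progenitor comparisons. With single mice left out, the calls among the 9 members ran from 2 to 5 in A/J, 1 to 4 in DBA/2J, 2 to 5 in BALB/cJ and 2 to 5 in C3H/HeJ (5, 4, 5 and 5 with all mice). With 1 replicate number left out they ran from 3 to 6 within AXB/BXA (8 with all mice), 4 to 9 within classical strains (9), 7 to 9 within BXD (9), 1 to 2 within CXB (1) and 1 to 5 between panels (3), and fewer mice enter these fits. Within CXB 7 members passed when the spread came from all mice. Within BXH, where 1 passed, 0 passed with bright probe sets only (Cyp2c44 lost its call), 2 with a trended robust prior, 3 with the spread of all mice and 2 without BXH19/TyJ. Between panels 5 passed with bright probe sets only. The cause of these changes was not tested. With position limits closer to the middle, the BXH strains over the upper limit for Cyp2c68 were 4 in place of 2. The median r over 28 pairs was 0.56 within BXD in place of 0.31. Of 315 alternative values for single genes in single contrasts, 275 kept their direction and side of the threshold, 31 lost the call and 4 gained it (Cyp2c54 and Cyp2c55 in C3H/HeJ). The other 5 changed sign near 0, none of them called: Cyp2c38 in BALB/cJ (-0.0099 with centred arrays, and -0.0033 and -0.0089 in a range of -0.0089 to 0.0429 with 1 mouse left out), Cyp2c70 in BALB/cJ (0.0468, in a range of -0.0747 to 0.0468) and Cyp2c29 in C3H/HeJ (-0.0018 with centred arrays). No paired analysis was possible because the replicate numbers were assigned in accession order and tie no mice together. The BXH F-test could not be fitted without replicate 1 or 2, which leaves 1 mouse per strain. At 2 or 3 mice per strain, a difference that missed the test, such as that of Cyp2c54 in C3H/HeJ, is not shown to be absent.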
